A study of Homo sapiens with 2 samples.

Results

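The genes described here are 56 components of TGF-beta, activin and BMP signalling, namely ligands, receptors, SMAD proteins, antagonists, regulators and ID target genes. They were found by gene symbol in the annotation of a two-colour Agilent whole human genome array. Of the 56 genes, 54 had at least 1 feature on the array, and 44 had a ratio other than exactly 0 on both arrays, out of 12842 such genes in the whole series. The 54 genes had 132 features, of which 108 gave a ratio on both arrays, 23 were exactly 0 on both arrays and 1 was exactly 0 on 1 array. BMPR1A and GDF9 were matched to no feature in the annotation used here. INHBE, NODAL, BMP3, BMP5, BMP8A, GDF7, GDF10, ACVR2A, NOG and ID4 had only features at exactly 0 on both arrays. No difference can be stated for these 12 genes.

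Cells of COLO320, a human colorectal cancer line with neuroendocrine features, were transfected with 100 nM of CDX2 siRNA 6 or CDX2 siRNA 8, and control cells with 100 nM of a non-targeting siRNA. The homeobox gene CDX2 encodes a transcription factor that specifies intestinal epithelium. Cells were harvested 24 h after fresh medium was given, and each array held RNA of 1 CDX2 siRNA in Cy5 and control RNA in Cy3. Each value is thus a log2 ratio of CDX2 siRNA over control siRNA, and the 2 siRNAs served as replicates (n = 2 throughout). No label says whether both arrays held the same control RNA. If they did, the 2 ratios were not independent. The dyes were not swapped, so an effect of the dye and an effect of the siRNA cannot be told apart, and the spread of the control was not measured. CDX2 itself stood at -1.44 with siRNA 6 and -1.41 with siRNA 8. This corresponds to 37.3% of control (mean -1.42 ± 0.0192, SD, n = 2; limma, adjusted p = 0.00164). The table holds ratios and no levels, so the level of cell type markers could not be checked. Ratios on both arrays were present for 3 of 7 neuroendocrine, 4 of 6 epithelial, 4 of 6 fibroblast, 3 of 5 haematopoietic and 0 of 4 endothelial markers. Of these, the 3 haematopoietic markers fell (log2 ratios from -1.07 to -0.92), 2 epithelial markers rose and 1 fell (from -2.08 to 1.56), and 1 neuroendocrine and 1 fibroblast marker rose and 1 of each fell. Their part in the results was not tested.

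Ligands of this family bind pairs of type I and type II receptor kinases, which phosphorylate receptor SMADs that join SMAD4 and enter the nucleus. TGF-beta, activin and nodal act mainly through SMAD2 and SMAD3, and BMPs through SMAD1, SMAD5 and SMAD9. ID genes, SMAD6, SMAD7 and BAMBI are classical targets of the pathway, and the last 3 act back on it as inhibitors. In the intestine, BMP signals rise from the crypt towards the villus or surface, where they accompany differentiation, and antagonists such as GREM1 and NOG restrain them around the crypt base.

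The 3 measured ID genes and BAMBI, targets of BMP signalling that were all higher with CDX2 siRNA, are shown by the 250 bases before their annotated start (RefSeq, GRCh38.p14). Capitals mark TTTAT or its reverse complement ATAAA, a core that CDX-type homeodomains bind, or GGCGCC, a BMP SMAD-type element. The windows are chr20:31605039-31605288 on the plus strand for ID1, chr2:8681806-8682055 on the plus strand for ID2, chr1:23559502-23559751 on the minus strand for ID3 and chr10:28677271-28677520 on the plus strand for BAMBI.
ID1: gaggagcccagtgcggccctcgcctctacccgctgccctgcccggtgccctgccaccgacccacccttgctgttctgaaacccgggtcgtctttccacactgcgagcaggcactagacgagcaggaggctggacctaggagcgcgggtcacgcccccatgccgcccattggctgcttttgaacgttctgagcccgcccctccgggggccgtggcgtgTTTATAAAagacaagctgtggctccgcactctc
ID2: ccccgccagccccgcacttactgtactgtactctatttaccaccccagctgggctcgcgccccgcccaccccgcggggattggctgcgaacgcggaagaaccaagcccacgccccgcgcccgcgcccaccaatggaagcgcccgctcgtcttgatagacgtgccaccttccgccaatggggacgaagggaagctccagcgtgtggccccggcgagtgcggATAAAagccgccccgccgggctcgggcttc
ID3: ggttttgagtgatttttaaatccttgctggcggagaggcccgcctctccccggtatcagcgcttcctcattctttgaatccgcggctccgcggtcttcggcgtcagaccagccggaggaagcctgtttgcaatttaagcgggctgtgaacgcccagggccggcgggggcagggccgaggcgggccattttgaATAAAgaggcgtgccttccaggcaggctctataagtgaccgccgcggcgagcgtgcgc
BAMBI: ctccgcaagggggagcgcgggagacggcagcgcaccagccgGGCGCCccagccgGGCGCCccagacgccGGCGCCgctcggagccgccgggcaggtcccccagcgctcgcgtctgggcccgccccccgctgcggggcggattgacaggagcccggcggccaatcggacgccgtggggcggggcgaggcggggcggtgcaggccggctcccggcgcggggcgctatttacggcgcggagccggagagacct
The capitals of ID1 hold 2 overlapping matches, which start 33 and 30 bases before the gene start, and overlap the letters of a TATA box. The match of ID2 starts 30 bases before the start, as does 1 match of ID1. Whether the ID2 match is also part of a TATA box was not tested. The match of ID3 starts 58 bases before the start, and the GGCGCC matches of BAMBI start 209, 196 and 181 bases before it. Of 27305 promoter windows of the same length, 33.8% held TTTAT on either strand. Among the pathway genes 49 of 56 had a window, and 30.6% of these held it. Among genes past the threshold it was present in 4 of 13 higher ones with a window (30.8%) and in 5 of 13 lower ones (38.5%). TTTAT was added after the ID windows had been read, and it is contained in TTTATG, longer letters of CDX2 type. That longer motif was present in 1 of the 49 windows (CHRD), against 10.1% of all windows. The SMAD-type letters CAGACA were present in 4 of the 49, against 13.7% of all. GGCGCC was present in 13 of the 49 (26.5%), against 15.8% of all. It was present in 2 of the 13 higher and in 5 of the 13 lower genes.

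Of the 44 genes with a ratio, 13 rose, 15 fell and 16 did not pass an adjusted p of 0.05 in limma. The share that rose was 29.5%, against 12.1% of all 12842 genes tested, and the share that fell was 34.1%, against 28.6%, so that the lower share was near that of all genes. In either direction 63.6% passed, against 40.7% of all genes. The median log2 ratio was -0.02, against -0.13 for all genes. With the arrays centred on their medians, 14 of the 44 pathway genes were higher and 12 lower. Of all 12842 genes, 2113 were then higher and 2915 lower, against 1556 and 3669 without centring. The share of lower genes among all genes past the threshold was 58.0% with centring, against 70.2% without it. A change of 1.5-fold or more that both siRNAs shared was seen in 9 higher and 11 lower genes (7.8% and 18.4% of all genes did so), and each of these 20 passed the threshold. The genes with the largest mean changes were INHBA among the higher and TGFBR3 and TGFBR2 among the lower. When exact zeros were kept as ratios, limma called 0 of 54 pathway genes and 0 of all 18334 genes. Of the 54, 23 then had an unadjusted p below 0.05, as did 5218 of the 18334. Since no label says whether the transfections were separate cultures or the control RNA was shared, p-values reflect only the spread between the 2 arrays.

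**Figure D1:**
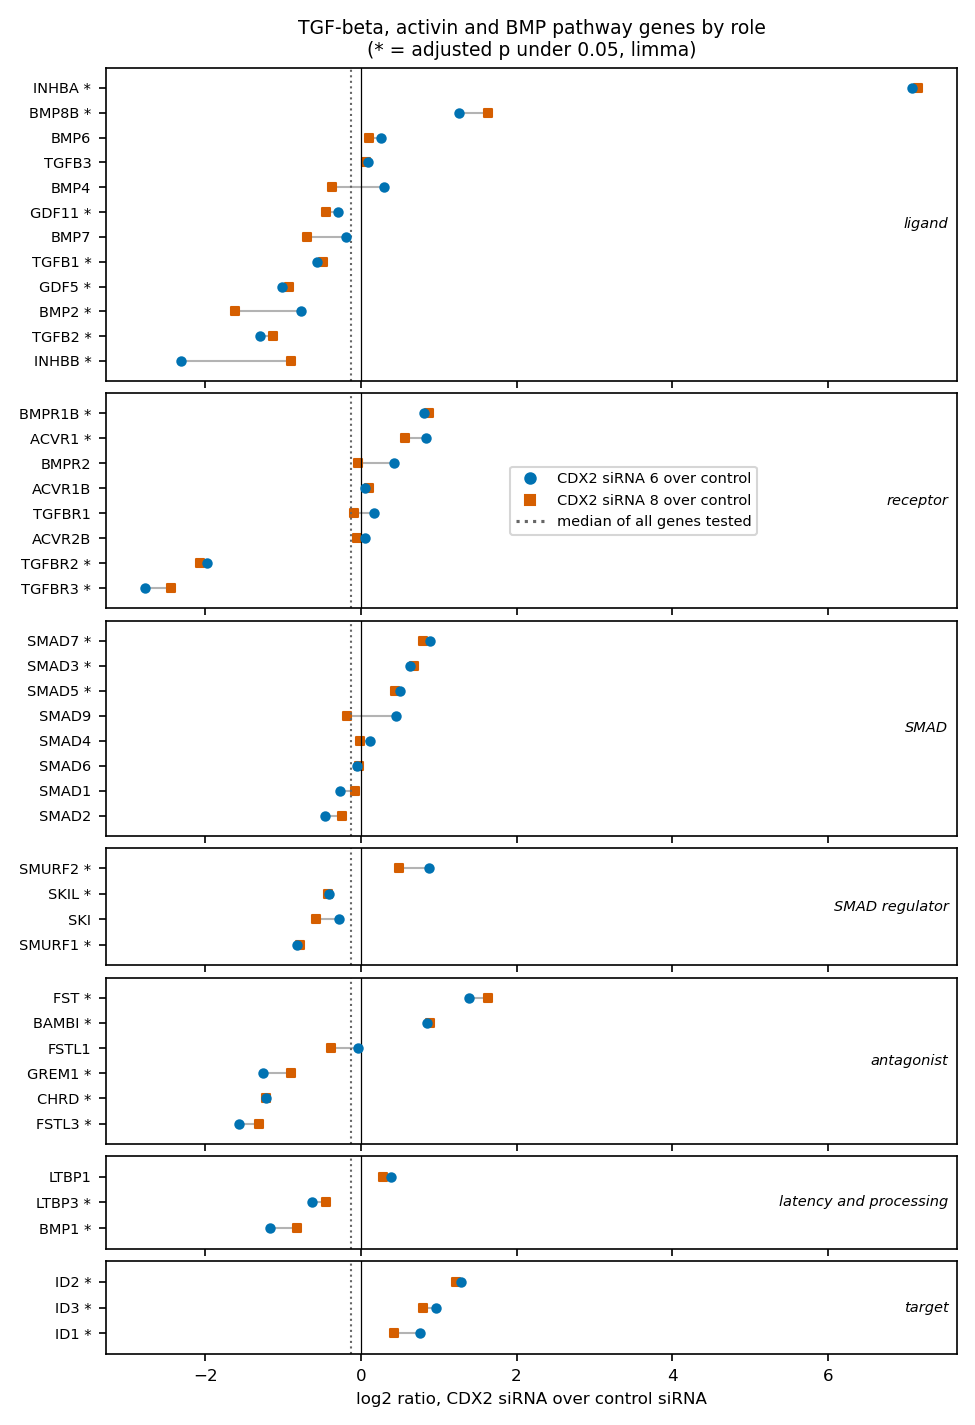
Log2 ratio of CDX2 siRNA over control siRNA (horizontal axis) for the 44 pathway genes with a ratio, grouped by role. Circles are siRNA 6, squares siRNA 8, the dotted line is the median of all genes (-0.13), and stars mark the 28 genes with an adjusted p under 0.05. INHBA lies apart at the right, TGFBR3 has the lowest ratio on either array, and the 3 ID genes lie above 0 on both arrays.

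Among the 12 ligands with a ratio, 2 rose, 6 fell and 4 did not pass (12.1% of all genes were higher and 28.6% lower). INHBA, which encodes the subunit of activin A, had a ratio of 7.08 with siRNA 6 and 7.16 with siRNA 8, 139-fold higher on average (mean 7.12 ± 0.0595, SD, n = 2; limma, adjusted p = 0.000128). This value came from 1 feature, annotated to a cDNA clone, and the feature annotated to the RefSeq mRNA of INHBA was exactly 0 on both arrays. INHBB, which encodes the subunit of activin B, stood at -2.31 with siRNA 6 and -0.89 with siRNA 8 (limma, adjusted p = 0.0363). The fall of INHBB was larger with siRNA 6 on each of its 2 features, which gave -3.33 and -1.29 with siRNA 6, and -1.24 and -0.55 with siRNA 8. With the arrays centred on their medians, INHBB no longer passed (adjusted p = 0.0510). INHBA and INHBB thus lay on opposite sides of control on both arrays.

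TGFB2, a TGF-beta isoform, had ratios of -1.30 with siRNA 6 and -1.13 with siRNA 8, 2.32-fold lower (limma, adjusted p = 0.00263). Its features of different accessions gave -2.08 and -1.78 in the first case, and -0.51 and -0.48 in the second, for siRNA 6 and siRNA 8. TGFB1, the isoform of most epithelia and immune cells, was measured by 10 features of 1 accession, from -0.74 to -0.40 with siRNA 6 and from -0.62 to -0.30 with siRNA 8. All 10 were below 0 on both arrays, and the gene fell to 69.4% of control (limma, adjusted p = 0.0159). TGFB3 did not pass, at 0.09 and 0.07. GDF11, an activin-like ligand, stood at -0.30 and -0.45 (adjusted p = 0.0450), and it no longer passed with the arrays centred (adjusted p = 0.118).

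BMP2, a ligand of BMP signalling, stood at -0.77 with siRNA 6 and -1.62 with siRNA 8, 2.30-fold lower (limma, adjusted p = 0.0231). GDF5, a ligand known from joint and cartilage development, stood at -1.01 and -0.92, with a spread far smaller than that of BMP2 (adjusted p = 0.00363). BMP8B rose 2.73-fold, at 1.27 and 1.63 (adjusted p = 0.00325), but its 2 features differed. The first gave 2.67 with siRNA 6 and 3.55 with siRNA 8, the next gave -0.14 and -0.29, and the last was exactly 0. BMP8B and BMP8A are near-identical copies, and a probe may not tell them apart. BMP4, BMP6 and BMP7 did not pass. BMP4 lay on opposite sides of 0, at 0.29 and -0.38, and the 4 features of BMP7 ran from -0.97 to 0.67 as means of both arrays.

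Of 8 receptors with a ratio, 2 rose, 2 fell and 4 did not pass (12.1% of all genes were higher and 28.6% lower). TGFBR2, the type II receptor of TGF-beta, stood at -1.98 with siRNA 6 and -2.06 with siRNA 8, or 24.6% of control (limma, adjusted p = 0.00106). TGFBR3, betaglycan, a co-receptor that presents TGF-beta isoforms, stood at -2.78 and -2.44, or 16.4% of control (adjusted p = 0.00115), which is percentile 0.195 of all genes. Both rested on 1 feature, and a further feature of TGFBR2 was exactly 0 on both arrays. TGFBR1, the type I partner of TGFBR2, did not pass, at 0.17 and -0.08. A further feature of TGFBR1 stood at -0.39 with siRNA 6 and at exactly 0 with siRNA 8.

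The receptors that rose were BMPR1B and ACVR1. BMPR1B, a type I BMP receptor, stood at 0.82 and 0.87, 1.79-fold higher (limma, adjusted p = 0.00467). Its 2 features differed in size, with means of 1.52 and 0.17, and the last was exactly 0. ACVR1, a type I receptor for BMP and activin ligands, stood at 0.83 with siRNA 6 and 0.56 with siRNA 8 (adjusted p = 0.0135). The activin receptors ACVR1B and ACVR2B and the BMP type II receptor BMPR2 did not pass, with means of 0.08, 0.00 and 0.19. ACVR2B and BMPR2, like TGFBR1, lay above 0 with siRNA 6 and below 0 with siRNA 8.

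All 8 SMAD genes had a ratio, of which 3 rose, 0 fell and 5 did not pass. The shares were 37.5% higher and 0.0% lower, against 12.1% and 28.6% of all genes, and 37.5% in either direction, against 40.7%. SMAD3, a receptor SMAD of TGF-beta and activin, stood at 0.63 and 0.69, 1.58-fold higher (limma, adjusted p = 0.00865). Its 10 features of 1 accession ran from 0.63 to 0.72 with siRNA 6 and from 0.67 to 0.79 with siRNA 8, and a feature of another accession gave 0.33 and 0.35. SMAD7, the inhibitory SMAD induced by TGF-beta and BMP, stood at 0.89 and 0.80, 1.79-fold higher (adjusted p = 0.00491). SMAD5, a receptor SMAD of BMP, stood at 0.50 and 0.43 (adjusted p = 0.0213). Each of the 3 was higher on both arrays.

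SMAD6, the inhibitory SMAD of the BMP branch, did not pass, at -0.06 and -0.02. SMAD4, the common partner, did not pass either, and its 10 features ran from 0.04 to 0.18 with siRNA 6 and from -0.05 to 0.05 with siRNA 8. SMAD2 did not pass, with a mean of -0.35 (adjusted p = 0.0626). Of its 13 features, 12 ran from -0.59 to -0.22 with siRNA 6 and from -0.28 to -0.06 with siRNA 8, and the last stood at -2.06 and -1.78. The mean of SMAD2 was therefore pulled down by 1 feature, and its feature median was -0.31 with siRNA 6 and -0.10 with siRNA 8. SMAD1 and SMAD9 did not pass, with means of -0.17 and 0.14. SMAD1 had features of both signs, and SMAD9 lay above 0 with siRNA 6 and below 0 with siRNA 8.

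SMURF1 and SMURF2, related ubiquitin ligases of receptors and SMADs, moved in opposite directions. SMURF1 stood at -0.82 and -0.78, 1.75-fold lower (limma, adjusted p = 0.00517), on 1 feature, while its other one was exactly 0. SMURF2 stood at 0.87 with siRNA 6 and 0.50 with siRNA 8, 1.60-fold higher (adjusted p = 0.0213), and its 2 features of different accessions had means of 0.65 and 0.71. SKI and SKIL, co-repressors that bind SMADs, showed no single direction over their features. SKIL passed as lower, with a mean of -0.42 (adjusted p = 0.0265). Its 3 features of different accessions had means of -1.23, -0.36 and 0.33, and with RefSeq mRNA features alone it was higher (0.33, adjusted p = 0.04999). SKI did not pass (adjusted p = 0.0515), with features from -1.59 to 0.66.

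**Figure D2:**
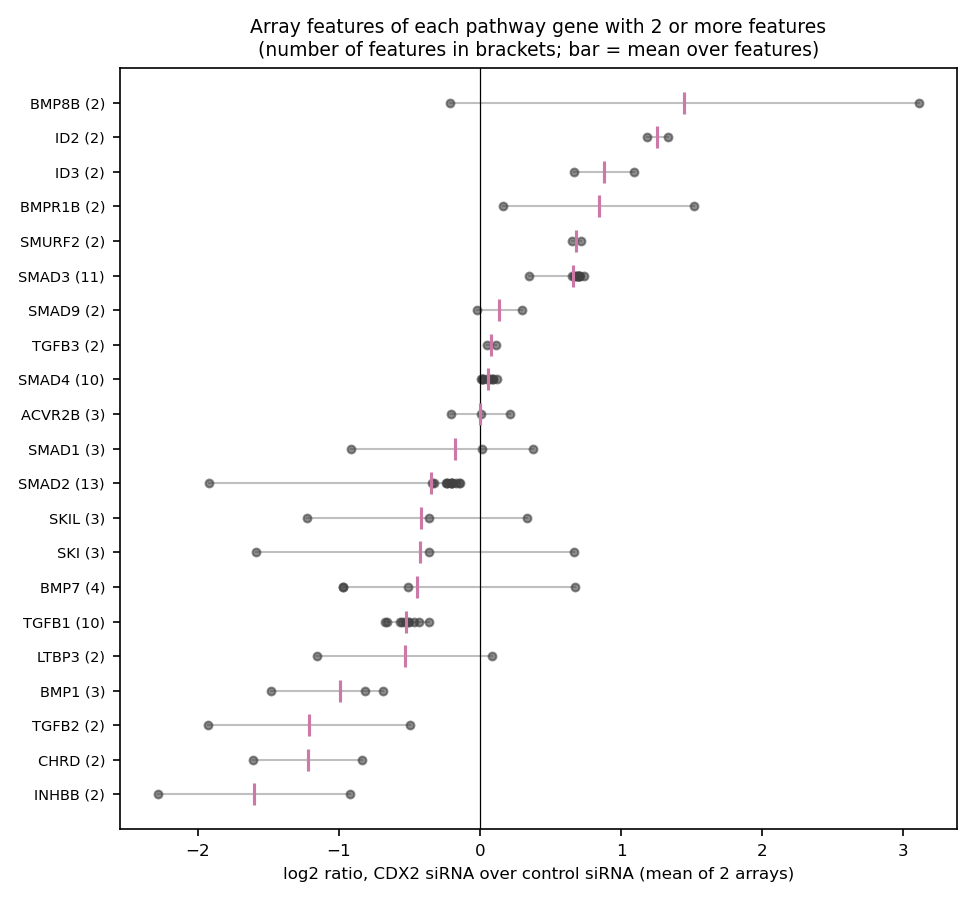
Mean log2 ratio of both arrays (horizontal axis) for each feature, in the 21 pathway genes with 2 or more features with a ratio. Points are features, bars are the mean over the features of a gene, and brackets hold their number. Features of TGFB1, SMAD3 and SMAD4 lie close together, except for 1 feature of SMAD3, whereas those of BMP8B, SKI and SMAD2 span 3.32, 2.25 and 1.78 log2 units.

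Of the 44 genes, 23 rested on 1 feature and 21 on 2 or more. In 10 of these 21 the features differed by at least 1 log2 unit, and in 8 they had opposite signs. Of the 28 genes past the threshold, 15 rested on 1 feature and 13 on more, and in 10 of these 13 every feature had the sign of the gene. The exceptions were BMP8B, SKIL and LTBP3. Across the arrays, 6 of the 44 genes had opposite signs, against 1898 of all 12842 genes. The 6 genes were BMP4, TGFBR1, ACVR2B, BMPR2, SMAD4 and SMAD9. The median gap between the siRNAs was 0.167 log2 units, against 0.152 for all genes. With 1 array for each siRNA, no difference between them could be tested.

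Antagonists were measured for 6 of 7 genes, of which 2 rose, 3 fell and 1 did not pass (83.3% in either direction, against 40.7% of all genes). FST, follistatin, which binds and neutralises activins, stood at 1.39 with siRNA 6 and 1.63 with siRNA 8, 2.85-fold higher (limma, adjusted p = 0.00210). FSTL3, a relative of follistatin that also binds activins, stood at -1.57 and -1.31, 2.72-fold lower (adjusted p = 0.00235). FST and FSTL3 therefore lay on opposite sides of control on both arrays, as did INHBA and INHBB, with the limits given above for those 2 genes. BAMBI, a membrane pseudoreceptor that dampens BMP and TGF-beta signals, stood at 0.85 and 0.88, 1.82-fold higher (adjusted p = 0.00433). Its promoter is the last of the 4 shown above.

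The secreted BMP antagonists CHRD and GREM1 fell. CHRD, chordin, stood at -1.23 and -1.22, 2.33-fold lower (limma, adjusted p = 0.00212), and both of its features were below 0, at -0.77 and -1.68 with siRNA 6 and -0.90 and -1.54 with siRNA 8. GREM1, gremlin, a BMP antagonist of the crypt region, stood at -1.25 and -0.89, 2.10-fold lower (adjusted p = 0.00630). NOG had no ratio. FSTL1, a secreted glycoprotein of the follistatin family, did not pass, at -0.03 and -0.38. FST, FSTL3, BAMBI and GREM1 each rested on 1 feature.

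Among genes of ligand latency and processing, BMP1, a protease that cleaves procollagen and chordin and is no BMP ligand, stood at -1.17 and -0.82, 1.99-fold lower (limma, adjusted p = 0.00742). Its 3 features with a ratio were all below 0, with means from -1.48 to -0.69, and a further feature was exactly 0 on both arrays. LTBP3, which holds latent TGF-beta in the matrix, passed as lower at -0.62 and -0.44 (adjusted p = 0.0196), although 1 of its 2 features had a mean of 0.09. LTBP1, with the same role, did not pass (0.39 and 0.28, adjusted p = 0.0512), and passed as higher with the arrays centred (adjusted p = 0.0253).

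The ID genes encode inhibitors of basic helix-loop-helix factors, and BMP signals induce them through SMAD1, SMAD5 and SMAD9. ID2 stood at 1.29 with siRNA 6 and 1.22 with siRNA 8, 2.39-fold higher (limma, adjusted p = 0.00211), with its 2 features at means of 1.18 and 1.33. ID3 stood at 0.96 and 0.79, 1.84-fold higher (adjusted p = 0.00533), and its features of different accessions were at means of 0.67 and 1.09. ID1 stood at 0.75 and 0.43, 1.51-fold higher (adjusted p = 0.0260), on 1 of 2 features. The 3 genes passed as higher, as did 12.1% of all genes, and were higher on 2 of 2 arrays. Every ID feature with a ratio was above 0, and ID4 had no ratio.

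Other genes of the pathway were taken from 7 lists, 129 genes in all without the 56 above. Of these, 80 had a ratio, 21 rose and 20 fell, or 51.2% in either direction, against 40.7% of all genes. In the list of BMP target genes, 12 of 20 with a ratio rose and 1 fell, with a median of 0.61, against -0.13 for all genes. Without the genes already described, 7 of 13 rose and 1 fell, with a median of 0.55. These shares stand beside 12.1% higher and 28.6% lower of all genes. No test was made of the list, which was drawn up with earlier results of these data known.

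Homeobox genes were among the higher genes in the list of BMP target genes. Whether any of them responds to BMP in these cells was not tested. DLX3 stood at 1.54 with siRNA 6 and 1.40 with siRNA 8, 2.77-fold higher (limma, adjusted p = 0.00173), and SIX2, a factor of kidney progenitors, at 3.08 and 3.53 (adjusted p = 0.00106). DLX2 and MSX1 were 1.70-fold and 1.55-fold higher. MSX2 passed as 1.46-fold higher, but its 2 features had opposite signs, at 1.51 and -0.35 with siRNA 6 and 1.47 and -0.45 with siRNA 8. GATA4, a zinc finger factor of heart and foregut, stood at 5.69 and 5.81, 53.9-fold higher on 1 feature (adjusted p = 0.000134), and its other feature was exactly 0. HES1, a repressor that acts downstream of Notch and that BMP can also induce, was 4.08-fold higher. TBX3 was the gene that fell, at -0.42 and -0.34 (adjusted p = 0.0360), and it no longer passed with the arrays centred.

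In the list of TGF-beta and activin target genes, 5 of 22 rose, 6 fell and 11 did not pass (22.7% higher and 27.3% lower, against 12.1% and 28.6% of all genes), with a median of -0.10. Without the genes already described, 4 of 20 rose and 5 fell. SNAI2, a repressor of epithelial genes, stood at 3.30 and 3.67, 11.2-fold higher (limma, adjusted p = 0.000774), on 1 of 2 features. CCN1, a matricellular protein, stood at 2.08 with siRNA 6 and 1.26 with siRNA 8 (adjusted p = 0.00924). CDKN1A, the p21 inhibitor, and IL11, a cytokine, fell 2.08-fold and 2.03-fold. CCN2, a gene widely used as a readout of TGF-beta, stood at 2.37 with siRNA 6 and -0.37 with siRNA 8 and did not pass (adjusted p = 0.322). The arrays thus disagreed on CCN2, and on KLF10, an early TGF-beta response gene, at 1.21 and -0.47.

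**Figure D3:**
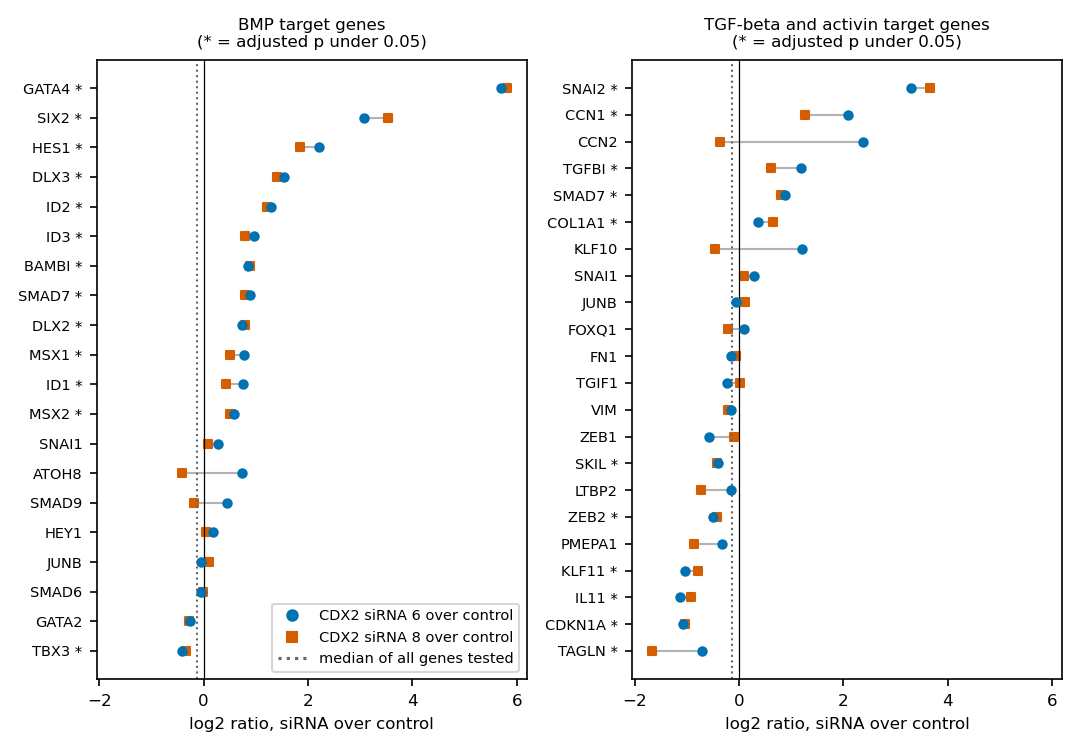
Log2 ratio of CDX2 siRNA over control siRNA (horizontal axes) for BMP target genes (left, 20 genes) and TGF-beta and activin target genes (right, 22 genes), with SMAD7, JUNB and SNAI1 in both. Circles are siRNA 6, squares siRNA 8, the dotted line is the median of all genes (-0.13), and stars mark an adjusted p under 0.05. At the left 12 genes rose and 1 fell, at the right 5 rose and 6 fell.

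The remaining lists moved both ways or were small. Among other extracellular antagonists and binders, 0 of 7 rose, 3 fell and 4 did not pass (42.9% lower, against 12.1% higher and 28.6% lower of all genes). Those that fell were FSTL4, a follistatin-like gene (7.06-fold lower), SOSTDC1, an antagonist of BMP and Wnt (4.30-fold), and NBL1, a DAN family BMP antagonist (2.92-fold). Each rested on 1 feature, and their limma adjusted p ran from 0.000867 to 0.00158. Among 5 other ligands with a ratio, GDF15, a stress-induced cytokine, rose 2.13-fold and AMH rose 1.80-fold. INHBC, an inhibin subunit gene, fell 4.99-fold on 1 of 2 features. Among 5 other receptors, AMHR2 (2.16-fold) and ACVR1C, a receptor of nodal and activin (1.68-fold, on 1 of 2 features), rose. ENG, endoglin, fell 1.97-fold. In each of these lists of 5 genes, 40.0% rose and 20.0% fell, against 12.1% and 28.6% of all genes.

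Of 9 other genes of latency, activation and processing, FURIN, a convertase that cleaves TGF-beta and BMP precursors, rose 1.85-fold and FBN1, fibrillin, rose 1.54-fold. TLL2, a protease related to BMP1, fell 1.73-fold on 1 of 2 features, and 6 did not pass. In this list 22.2% rose and 11.1% fell, against 12.1% and 28.6% of all genes. Of 26 other SMAD cofactors and regulators, 4 rose and 8 fell (15.4% and 30.8%, near the 12.1% and 28.6% of all genes). FOXH1, a nodal and activin cofactor, stood at -1.33 and -1.31, 2.50-fold lower (limma, adjusted p = 0.00184). RBL1, the pocket protein p107, fell 3.82-fold on 1 of 2 features, and the antisense transcript SMAD5-AS1 fell 3.23-fold. EP300, an acetyltransferase that SMADs recruit, stood at -0.92 with siRNA 6 and -1.75 with siRNA 8. Its 11 features were spread widely, from -1.85 to 0.06 with siRNA 6 and from -2.34 to 0.12 with siRNA 8. With the median of its features EP300 did not pass (limma, adjusted p = 0.0581).

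**Figure D4:**
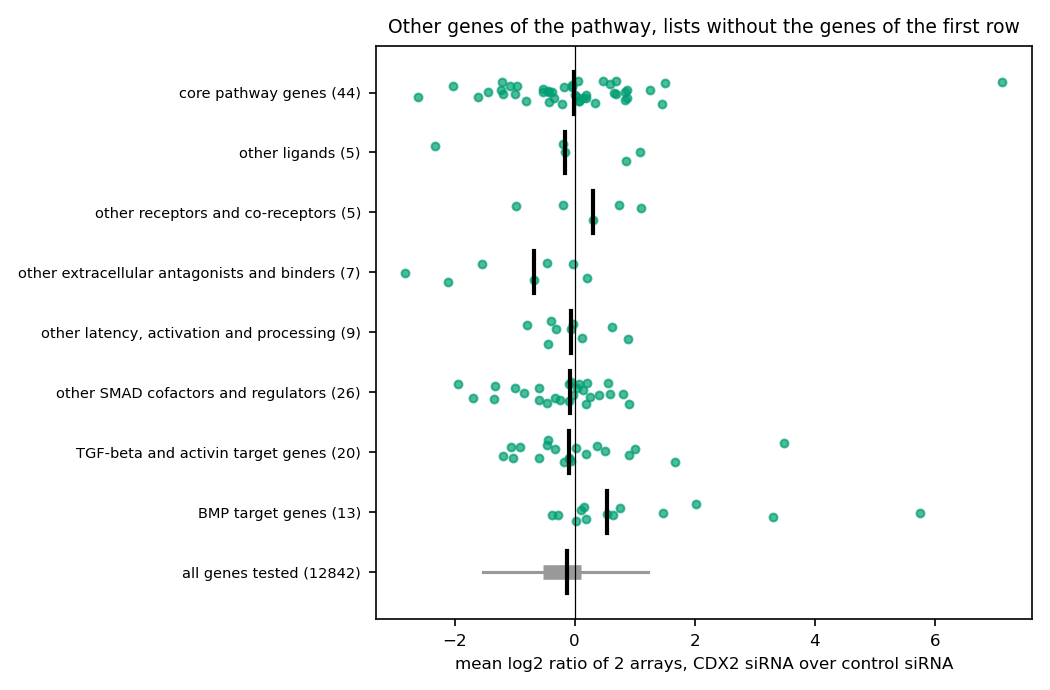
Mean log2 ratio of both arrays (horizontal axis) for the 44 core pathway genes and for the 7 other lists without them, with the number of genes in brackets. Points are genes, black bars are medians, and the grey box and line of all 12842 genes span percentiles 25 to 75 and 5 to 95. The median of BMP target genes is 0.55 and that of all genes -0.13.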

How the data were processed

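The authors deposited log10 ratios with Cy5 (CDX2 siRNA) over Cy3 (control siRNA). Base 10 is that of Agilent Feature Extraction 9.5.3, the tool in the submitters' processing notes, but the base itself, the background correction and the dye correction are not given in the sources used here. Direction follows the dyes in the labels. Ratios were converted to log2. An exact 0 was read as a ratio not measured, which no source states. Features other than 0 on both arrays were averaged per gene, named through the platform annotation (31332 of 45015 features with 1 gene). All 12842 genes were fitted with limma 3.58.1 in R 4.3.3, intercept only, eBayes against 0, with residual and prior degrees of freedom of 1 and 2.88, and Benjamini-Hochberg adjustment over all genes. The fit was tested on simulated data. No intensities are in the table, so signal over background is unknown, and the number of arrays limits the precision.

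Genes past an adjusted p of 0.05 and at least 1.5-fold on both arrays were given in full, as were members whose features or arrays disagreed, and up to 4 genes per other list with the largest smaller absolute value. The further genes named, MSX1, MSX2, DLX2, TBX3, CCN2 and KLF10, were chosen after their values were seen. Pathway genes and lists were chosen with earlier results of these data known. Alternatives covered centring, exact zeros, feature summaries, variance prior, quantile normalization, limma's treat and each array alone.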

Additional observations from a re-analysis of the deposited data

How the results depend on the processing

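No paired analysis was possible because the series has 1 group of arrays, each already a ratio to control. With exact zeros kept as ratios of 0, 5002 genes without spread entered the variance prior, and limma called 0 pathway genes higher and 0 lower, 0 and 0 of the other pathway genes, and 0 and 0 of all genes, with 5218 of 18334 at an unadjusted p under 0.05. CDX2 kept its value of -1.42 there (adjusted p = 0.0676, against 0.001715 to 0.003115 in its other alternatives with a test), and ran from -1.44 to -1.41 with either array left out. Under the other alternatives 10 to 14 pathway genes were higher and 10 to 15 lower. The counts over all genes moved as well, from 1064 to 2113 higher and from 2500 to 3667 lower. With centred arrays, 25 of the 28 genes kept their call, INHBB, GDF11 and SKIL lost it, and 58.0% of all calls were lower, against 70.2%. Against a fold of 1.2, TGFB1, INHBB, GDF11, SMAD5, SMURF2, SKIL, LTBP3 and ID1 no longer passed. Means of other sign were BMP4 (0.085) and SMAD6 (0.089) with centring, SMAD1 with the median of its features (0.015) and with RefSeq mRNA features (0.19), SMAD9 (-0.021) and SKIL (0.33) with RefSeq mRNA features, and TGFBR1 (-0.076) with zeros kept. A value per accession, added after the data were seen, changed no call among the 44 pathway genes, while EP300 no longer passed (adjusted p = 0.0538). Each array alone has no test.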
